A study of Mus musculus with 18 samples.

Results

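The 8 genes described here are Pparg, its partner receptors Rxra and Nr1h3, the coactivators Med1, Ncoa1, Ppargc1a and Ppargc1b, and the deacetylase Sirt1. They were chosen by symbol from 12634 genes with an m6A peak in at least 1 of 9 deposited peak lists, each symbol matching 1 Ensembl gene. N6-methyladenosine (m6A), a base modification of mRNA, was located by antibody pull-down of fragments (IP) sequenced beside input RNA. All samples are of 3T3-L1, a line of mouse fibroblast-like preadipocytes that turns into fat-storing adipocytes when induced. The 18 samples are an IP and an input of siFTO cells (Fto, an m6A demethylase, knocked down, 2 replicates), of siCtrl cells (control siRNA, 2 replicates), and of days -2, 0, 2, 5 and 10 of adipogenesis (1 each). Day 0 is taken as the start of induction only by its name. The labels give every sample as the 3T3-L1 line without the day of the siRNA cells, and they do not say whether replicates were separate cultures, so p-values measure the spread between these samples, which may be technical.

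Pparg encodes the nuclear receptor that drives adipocyte differentiation. It binds DNA as a heterodimer with the retinoid X receptor, of which Rxra is the alpha form, and ligand binding replaces corepressors by coactivators. Nr1h3 encodes LXR alpha, an oxysterol receptor that pairs with the same partner. Med1 links receptors to the Mediator complex, Ncoa1 (SRC-1) is a coactivator of the p160 family, Ppargc1a and Ppargc1b (PGC-1 alpha and beta) are coactivators of mitochondrial and thermogenic genes, and Sirt1 is an NAD-dependent deacetylase that restrains PPARG activity in mouse fat cells.

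Only tables of promoter windows held sequence for these genes, and 5 genes had a peak over such a window (250 bases before to 50 after a RefSeq start). A stretch of 30 bases under a peak is shown for each, because peaks here were listed in siFTO but not siCtrl for Nr1h3, in siCtrl but not siFTO for Med1 and Ncoa1, and in siCtrl 1 and on days 0, 2, 5 and 10 for Pparg, and because the Sirt1 window touches its strongest region. The sequences are RefSeq's (GRCm38.p6, the assembly that mm10 names), read along the transcript, 5′ to 3′, at chr6:115361140-115361169 (plus strand), chr2:91194987-91195016, chr11:98193127-98193156, chr12:4477133-4477162 and chr10:63338986-63339015 (minus strand). Capitals mark 1 searched word a gene, the one under peaks of the most lists or, among equals, the first in the order given below. The Nr1h3 stretch also holds GAAC, left in lower case.
Pparg: cggcccgccggagGGACgcggaagaagaga
Nr1h3: gagagatggaactAGACcggtctgcgggga
Med1: acttggttcccctctgagtggcggggaaag
Ncoa1: cggcagccgtggaggaggaGAACatggcgg
Sirt1: ggagcagaggaggcgagggcggagggccag

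The words searched were GGAC and, beside it, AGAC, with GAAC as well as AAAC, 4 forms of the core at which m6A is usually placed. Matches were counted on the transcript's strand, and none of the words can overlap another. The stretch under peaks held 2 such words in 93 bases for Pparg, 4 in 190 bases for Nr1h3, 1 in 68 bases for Ncoa1, and none in 31 bases for Med1 or 40 for Sirt1. Of 32851 promoter windows, 98.0% held at least 1 of the words, and 50.8% held one in the 50 bases after the start. Singly, GGAC was in 65.6% of windows on the transcript's strand and in 66.1% on the opposite one. The capitals lie under a peak of 1 list for Pparg (siCtrl 1), of 4 lists for Nr1h3 and of 6 lists for Ncoa1. The whole Med1 stretch lies under peaks of siCtrl 1 and day 0, and peaks of siCtrl 2 and days 2 and 5 reach only its 5′ end. The whole Sirt1 stretch lies under peaks of siCtrl 2 and days 0 and 2, and the day 10 peak covers part of it. Peaks also extend past the windows.

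The lists differed in length, with 39476 and 31259 peaks for siFTO replicates 1 and 2, 35979 and 39133 for siCtrl, and 26485, 37463, 39852, 44070 and 44529 on days -2, 0, 2, 5 and 10. Read depth is unknown, since each peak has a fold but no count. That fold is the authors' enrichment of IP over input, used here to describe peaks within 1 list, with its percentile among that list's folds. The targeted gene Fto had 5 and 4 peaks in siFTO and 6 and 6 in siCtrl, which does not measure its RNA level. Of 10 preadipocyte and fibroblast markers, 8 or 9 had a peak in every list. Of 8 adipocyte markers, 1 had a peak in each siFTO, siCtrl and day 0 list, 2 on day -2, 6 on day 2 and 7 on days 5 and 10. Of the markers of other cells, 2 of 6 for macrophages, 2 of 5 for endothelium and 1 of 6 for muscle had a peak in some list. No peak was listed for Adgre1, Cd68 and Ptprc (macrophages), Pecam1 and Cdh5 (endothelium) or Myod1 and Myog (muscle) in any list.

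The 8 genes held 354 of 338246 peaks. By list, they had 36 and 31 peaks in siFTO, 35 and 36 in siCtrl, and 25, 34, 47, 63 and 47 on days -2, 0, 2, 5 and 10. Their share of all peaks was 0.0944%, 0.0908%, 0.118%, 0.143% and 0.106% over the 5 days in order, highest on day 5. The 3 receptors, Ppargc1b and Ncoa1 covered the most bases of all 9 lists on day 5, Ncoa1 narrowly (1225 bases, against 1175 on day 0). With each list scaled to its total, Pparg was highest in siFTO 2, Ppargc1b on day 2 and Ncoa1 on day -2. Pparg, Rxra, Med1, Ncoa1, Ppargc1b and Sirt1 had peaks at every stage, and Nr1h3 at every stage but day -2. Ppargc1a had none at any stage. In such bulk samples fewer cells with a transcript and less of it per cell cannot be told apart, and the level of each transcript was not used here.

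**Figure D1:**
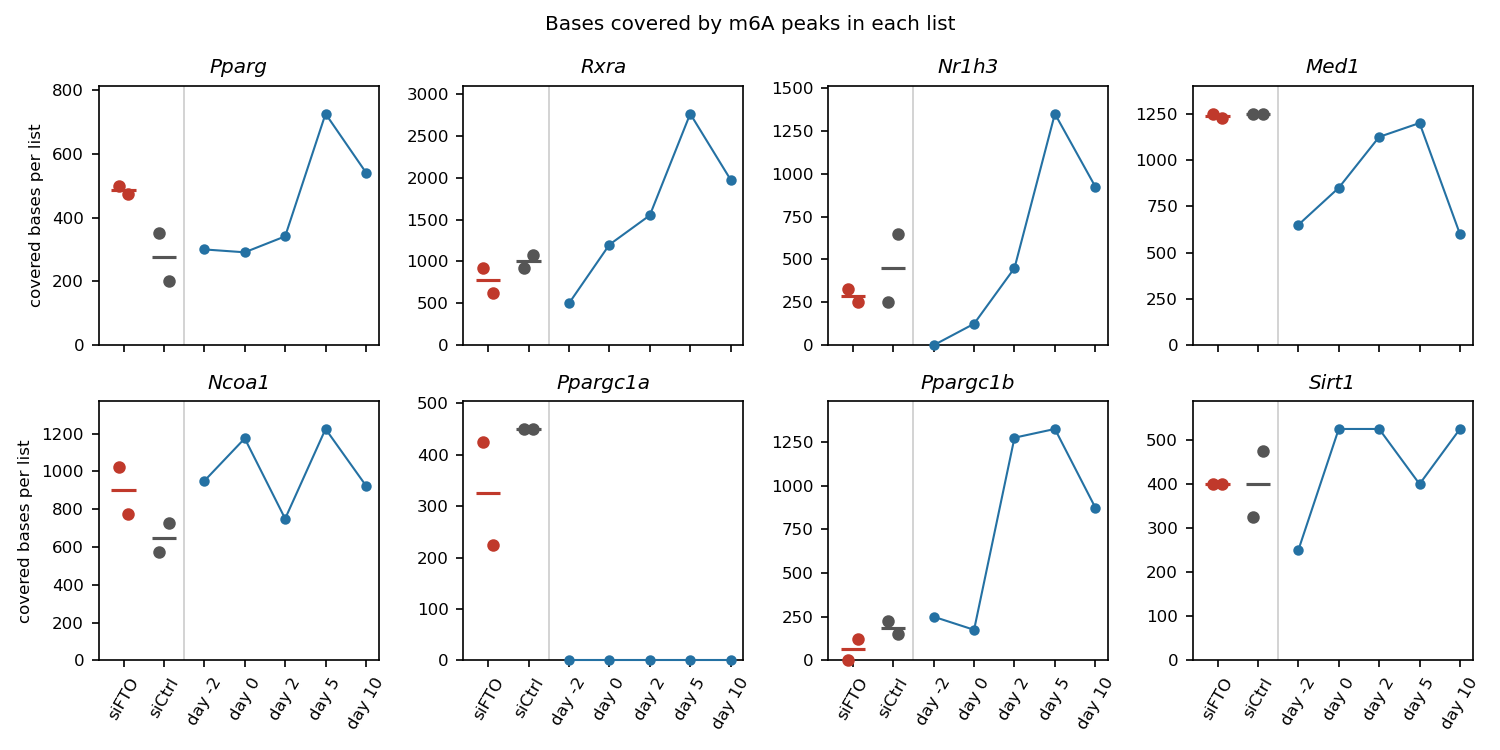
Bases under m6A peaks (y axis, from 0) of each gene in the 2 siFTO lists and the 2 siCtrl lists (points, with the mean as a bar) and in the day lists (connected points, 1 list each). Pparg, Rxra, Nr1h3, Ncoa1 and Ppargc1b are highest on day 5, and Ppargc1a is at 0 on all 5 days.

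Covered bases, the union length of a gene's peaks in a list, were compared between day 10 and day 0, before and after the whole course. A gene was called at a ratio of at least 2, without a test, since each day is 1 list. Nr1h3 and Ppargc1b were called higher, 2 of the 7 genes with a peak on either day, and none was lower, where 21.1% of 9802 genes were called higher and 5.92% lower. The median ratio was 1.65 for these 7 genes and 1.15 over 8310 genes with peaks on both days. Day 5 against day 0 was added after the values were seen. There Pparg, Rxra, Nr1h3 and Ppargc1b were called higher and none lower, 4 of 7, against 19.4% of 9671 genes called higher and 9.62% called lower. The median ratio was 2.30 for the 7 genes and 1.08 over 8151 genes. Scaled to the list total, the day 5 ratio of Rxra was 1.95, below the fold used. Pparg was not called with peaks under the list's median fold dropped, with equal list lengths or without intronic peaks, and Nr1h3 and Ppargc1b were called under each of these settings. Peaks of the 8 adipocyte markers covered 575, 400, 4050, 7550 and 6475 bases on the 5 days in order, and their part in these differences was not tested. From day -2 to day 0, Rxra, Nr1h3 and Sirt1 were called higher and none lower, 3 of 7, against 40.6% of 10606 genes higher and 25.1% lower, a share near that of all genes. The day -2 list is the shortest, and scaled to the list total only Nr1h3 kept that call, while Ppargc1b had a ratio of 0.442, at least 2-fold lower.

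Pparg (ENSMUSG00000000440, chromosome 6, 115360879 to 115490404 in RefSeq, plus strand) carried a peak in all 9 lists. It had 4 and 4 peaks in siFTO, 3 and 2 in siCtrl, and 3, 2, 2, 6 and 4 on days -2, 0, 2, 5 and 10. These covered 500 and 475 bases in siFTO and 350 and 200 in siCtrl. On the 5 days in order, 300, 291, 341, 725 and 541 bases were covered. Both siFTO lists thus lay above both siCtrl lists. Day 5 was the highest of all 9 lists, with 2.49 times the bases of day 0. Once each list was scaled to its total, that ratio was 2.11, and siFTO 2 lay slightly above day 5.

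The 30 Pparg peaks fell into 9 regions, a region being all peaks of a gene, over the 9 lists, that share at least 1 base. The region nearest the 3′ end (115489951 to 115490200, coding, 204 bases before the RefSeq gene end) was in all 9 lists, the only such region of Pparg. Its highest fold was 2.0 and 1.74 in siFTO, 1.48 and 1.51 in siCtrl, and 1.58, 3.85, 4.81, 5.14 and 3.52 on days -2, 0, 2, 5 and 10. A second coding region (115472976 to 115473200) was in all 4 siRNA lists and on days 5 and 10, and in none of days -2, 0 and 2. The 5′ UTR region (115361101 to 115361325) was in neither siFTO list, in siCtrl 1 with a fold of 1.76, and on all 5 days with folds of 1.88, 8.25, 5.96, 4.43 and 6.81.

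Intronic peaks of Pparg were at different places in different lists. siFTO 1 had 1 (115483126 to 115483225, fold 23.05) and siFTO 2 had 2 (115481751 to 115481850, fold 17.68, and 115485176 to 115485250, fold 27.11), while siCtrl had none. Days 5 and 10 shared 1 at 115431426 to 115431500, with folds of 26.92 and 24.9, day 5 had a second at 115481276 to 115481400 (fold 21.99), and day -2 had another with a fold of 65.35. No intronic region was in both siFTO lists. The 7 intronic folds ran from 17.68 to 65.35 and the 17 coding folds from 1.34 to 5.14, with median percentiles in their lists of 89.5 and 25.2. The coding folds of Pparg lay below the median fold of their list in every list, reaching percentile 44.5 on day 2 and 44.7 on day 5.

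Rxra (ENSMUSG00000015846, chromosome 2, 27676445 to 27763319, plus strand) had 6 and 5 peaks in siFTO and 6 and 7 in siCtrl. On days -2, 0, 2, 5 and 10 it had 4, 9, 12, 19 and 14. Covered bases were 925 and 625 in siFTO against 925 and 1075 in siCtrl, and 500, 1200, 1550, 2762 and 1975 on the 5 days. The siRNA groups met at 925, and the stage values were highest on day 5 and lowest on day -2.

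Of 15 Rxra regions, 3 were in all 9 lists. Those were coding regions at 27741826 to 27741950 and 27748601 to 27748800, and a 3′ UTR region at 27760376 to 27760825. The coding region at 27748601 had folds of 3.71 and 3.43 in siFTO, 3.0 and 3.4 in siCtrl, and 3.97, 5.27, 6.67, 14.52 and 11.44 on the days in order. A region that runs from the coding sequence into the 3′ UTR (27759526 to 27759825), was on days 0, 2, 5 and 10 and in no siRNA list. Further 3′ UTR regions at 27759876 to 27760050 and 27760976 to 27761100 were on days 5 and 10 alone. The 3′ UTR of Rxra held 2 peaks in each of the siFTO lists, the siCtrl lists and days -2, 0 and 2, against 7 on day 5 and 5 on day 10. Labels and cutting enter these counts. In the region that starts at 27759526, the peaks of days 0 and 2 were labelled coding only. The region at 27760376 to 27760825 was cut into more adjoining peaks on day 5 than in any other list.

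**Figure D2:**
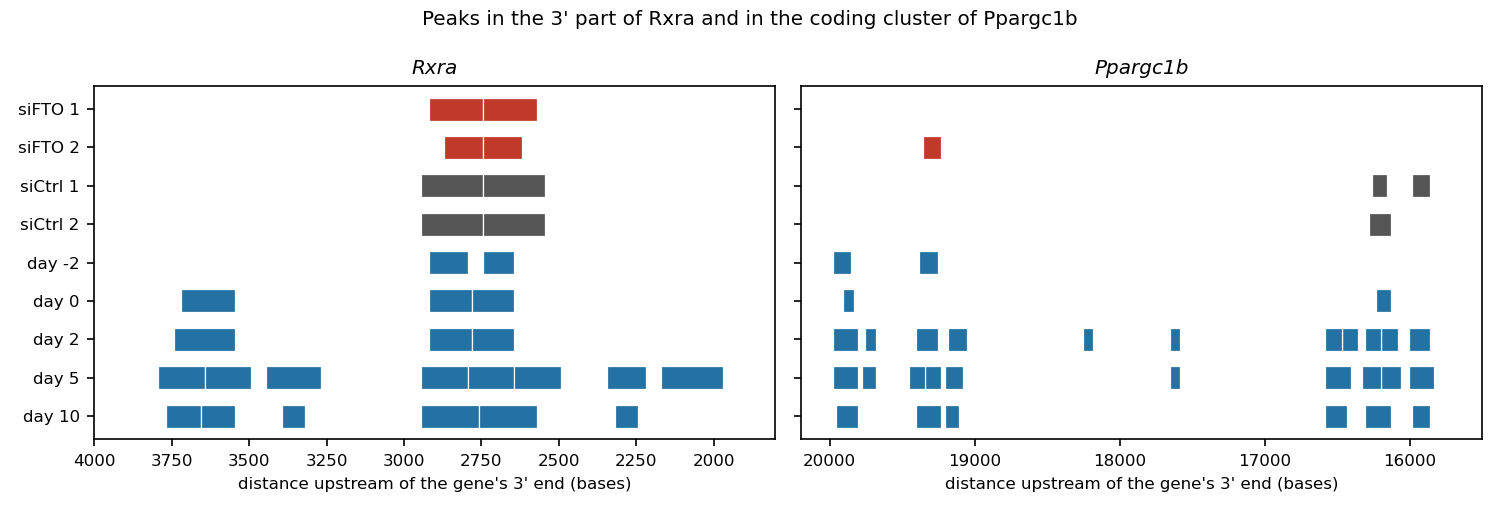
Peaks (bars, drawn to scale) in the 3′ part of Rxra and in the coding cluster of Ppargc1b, by distance upstream of the gene's 3′ end in bases (x axis), for each list (rows). The Rxra 3′ UTR region that starts 2494 bases from the end is in every list, while Ppargc1b has 11 and 10 peaks on days 2 and 5 and at most 2 in each list of siFTO, siCtrl and days -2 and 0.

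Rxra also had intronic peaks near its 5′ end (27677576 to 27677850), absent from siFTO, listed for each siCtrl replicate (folds 6.67 and 4.65) and on days 0, 2, 5 and 10, with a highest fold of 151.21 on day 0. Another intronic region (27755226 to 27755375) went the other way, with folds of 12.08 and 6.37 in siFTO, peaks on days 2 and 5, and none in siCtrl. A coding region at 27754201 to 27754375 was absent from siFTO and present in siCtrl (1.45 and 1.53), and on days 2, 5 and 10.

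Nr1h3 (ENSMUSG00000002108, chromosome 2, 91184061 to 91202829, minus strand) had the largest ratio of day 10 to day 0 of the 8 genes. It had no peak on day -2 and 1, 3, 8 and 6 on days 0, 2, 5 and 10. Covered bases were 0, 125, 450, 1350 and 925 on days -2 to 10. Day 10 had 7.40 times the bases of day 0, or 6.22 times scaled to the list total. In siFTO it had 3 and 2 peaks over 325 and 250 bases, and in siCtrl 2 and 5 over 250 and 650 bases, so the siRNA groups overlapped, and siCtrl 2 alone was high.

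Positions within Nr1h3 differed more than its totals. The 5′ UTR region (91194976 to 91195175, in part shown above) was in both siFTO lists with folds of 7.33 and 6.81, in neither siCtrl list, and on days 5 and 10 with 7.61 and 5.49. Coding regions at 91192551 to 91192725 and 91190676 to 91190950 were present in siCtrl 1 and 2 and absent from siFTO. The second of these was the earliest along the days, with folds of 5.86, 11.46, 17.09 and 11.45 on days 0, 2, 5 and 10. At 91190176 to 91190575 the authors' part was coding in siFTO, siCtrl 2 and on day 5 and intron on days 2 and 10, so a part label is not a fixed property of a place. Regions whose peaks carried more than 1 part label numbered 2 of 76 for the 8 genes, and 6.32% of 67991 for all genes. Such regions include those that span a boundary between parts, as the other one here, in Rxra, does.

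**Figure D3:**
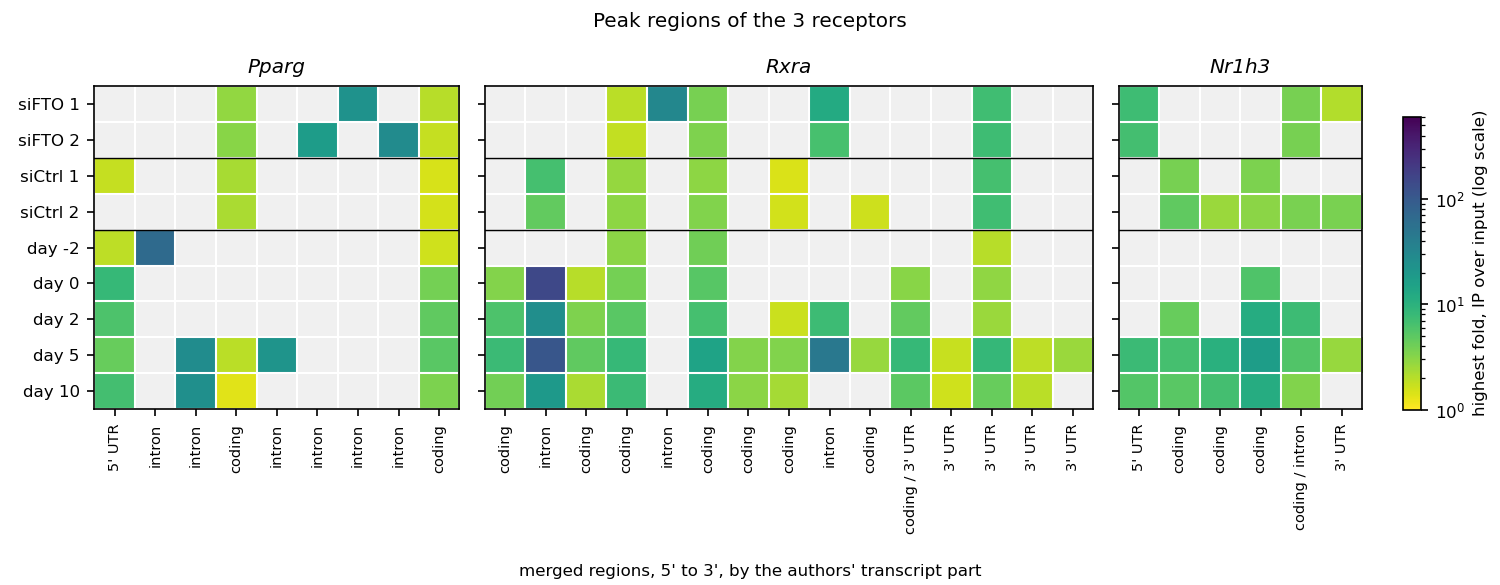
Regions of Pparg, Rxra and Nr1h3 from 5′ to 3′ (columns, labelled by the authors' transcript part) in each list (rows), coloured by the highest fold of IP over input on a log scale, grey where the list has no peak. The 5′ UTR column of Nr1h3 is filled in both siFTO lists and that of Pparg in siCtrl 1 and the 5 stages, and the columns of Nr1h3 fill from day 0 to day 5.

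Ppargc1a (ENSMUSG00000029167, chromosome 5, 51454249 to 52115853, minus strand) was found in the siRNA lists alone. It had 3 and 2 peaks over 425 and 225 bases in siFTO, and 5 and 3 peaks over 450 and 450 bases in siCtrl. No stage list had a peak, and the same held for 0.649% of the 12634 genes (82 genes with a peak in all 4 siRNA lists and no stage list), a comparison chosen after the values were seen. All 13 peaks were coding. Regions at 51473901 to 51474100 and 51472576 to 51472725 were in all 4 lists, the first with folds of 6.85 and 5.89 in siFTO and 5.46 and 7.37 in siCtrl. A region at 51474176 to 51474275 was in siCtrl (5.13 and 4.92) but not in siFTO.

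Ppargc1b (ENSMUSG00000033871, chromosome 18, 61291445 to 61400756, minus strand) had 0 and 1 peaks in siFTO and 2 and 1 in siCtrl. On days -2, 0, 2, 5 and 10 it had 2, 2, 11, 10 and 6, covering 250, 175, 1275, 1325 and 875 bases. Days -2 and 0 were close to the siRNA lists, and days 2, 5 and 10 were all above them. Day 10 had 5.00 times the bases of day 0, and day 5 had 7.57 times, or 4.20 and 6.41 times scaled to the list totals.

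The 35 Ppargc1b peaks were all coding and lay in 9 regions between 61307276 and 61311425. Day 2 had a peak in each of the 9 regions, day 5 in 8 and day 10 in 6. Folds on day 2 reached 53.85 (61307639 to 61307750), at percentile 96.1 of that list. Of the regions, 61307501 to 61307775 was absent from siFTO, present in siCtrl (27.98 and 15.49), and on days 0, 2, 5 and 10. The peak of siFTO 2 lay elsewhere, at 61310676 to 61310800, with a fold of 30.65.

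Sirt1 (ENSMUSG00000020063, chromosome 10, 63319005 to 63339035, minus strand) had 3 and 2 peaks in siFTO, 3 and 3 in siCtrl and 2, 4, 4, 2 and 4 on days -2, 0, 2, 5 and 10. Covered bases were 400 and 400 in siFTO, 325 and 475 in siCtrl, and 250, 525, 525, 400 and 525 on the days. The siRNA groups overlapped, with equal means. Its first region (63338576 to 63339025, coding, 10 bases from the RefSeq gene start) was in all 9 lists and held its highest fold in each. These were 9.72 and 16.28 in siFTO, 10.42 and 14.08 in siCtrl, and 84.59, 525.64, 416.62, 44.34 and 309.34 on the days in order. Within their lists those folds stood at percentile 79.2 in siFTO 1 and between 88.3 and 99.9 in the others.

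A second Sirt1 coding region, at 63321751 to 63321950, was in both siFTO lists (6.94 and 5.82) and in siCtrl 2 (5.56) and on no day. A region at 63331801 to 63331900 was in no siFTO list, in siCtrl 1 (2.6) and on days 0, 2 and 10.

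Med1 (ENSMUSG00000018160, chromosome 11, 98152154 to 98193313, minus strand) had 9 peaks in each of the 4 siRNA lists, over 1250 and 1225 bases in siFTO and 1250 and 1250 in siCtrl. On days -2, 0, 2, 5 and 10 it had 6, 8, 9, 9 and 6 peaks over 650, 850, 1125, 1200 and 600 bases. Day 10 thus lay at 0.5 times day 5. Under other settings the direction of its siRNA difference varied. With peaks under the list's median fold dropped, siFTO minus siCtrl was -237.5 bases and -1.5 peaks. Without intronic peaks it was -162.5 bases and -1 peak, and in both settings each siFTO list was lower. It was 100 bases and 1 peak with equal list lengths, and 184 bases and 0.652 peaks scaled to the list total, where the groups overlapped. Shares over all genes are not given for these settings. Of its 12 regions, 7 were in all 4 siRNA lists and 3 in all 9 lists.

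The authors placed 61 of the 74 Med1 peaks in introns. All but the day -2 peak at 98178401 to 98178500 (fold 84.32) lay between 98153026 and 98158225, a stretch that starts 872 bases from the RefSeq gene end, and exon positions were not used here to check the label. Their median fold of 2.34 was in the lower part of the lists (median percentile 19.0). The single coding region, 98152876 to 98153025, had folds of 2.71 and 3.32 in siFTO and 2.89 and 3.35 in siCtrl. The 5′ UTR region (98193126 to 98193275) was in neither siFTO list, in both siCtrl lists with folds of 7.26 and 6.9, and on days 0, 2 and 5 with 4.36, 5.0 and 5.56. In siCtrl it held the highest fold of the gene.

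Ncoa1 (ENSMUSG00000020647, chromosome 12, 4247362 to 4477206, minus strand) had 15 regions over the 9 lists. It had 8 and 6 peaks in siFTO, 5 and 6 in siCtrl, and 8, 8, 6, 9 and 7 on days -2, 0, 2, 5 and 10. Covered bases were 1025 and 775 in siFTO, 575 and 725 in siCtrl, and 950, 1175, 750, 1225 and 925 on the days. Only the 3′ UTR region at 4247726 to 4247850 was in all 4 siRNA lists, with folds of 5.96 and 5.89 in siFTO and 6.94 and 5.69 in siCtrl, and it was on no day. Nr1h3 and Ppargc1b had no region in all 4 of these lists.

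In siFTO but not siCtrl, Ncoa1 had an intronic region at 4276501 to 4277000 (34.17 and 47.15), an intronic one at 4252076 to 4252200 (11.52 and 31.24), a 3′ UTR one at 4248801 to 4248950 (54.44 and 41.26) and a coding one at 4339001 to 4339150 (8.6 and 4.99). The last 2 of these were otherwise on day -2 alone. In siCtrl but not siFTO it had coding regions at 4295151 to 4295250 and 4290801 to 4290975 and the 5′ UTR region at 4476751 to 4477200, whose highest folds were 10.66 and 6.83. That 5′ UTR region was also on days 0, 2, 5 and 10, with 17.76, 18.18, 19.97 and 15.67, and not on day -2. The intronic region at 4276501 had the highest folds of Ncoa1 on days -2 and 0 (347.83 and 372.03) and was on days 5 and 10 as well.

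**Figure D4:**
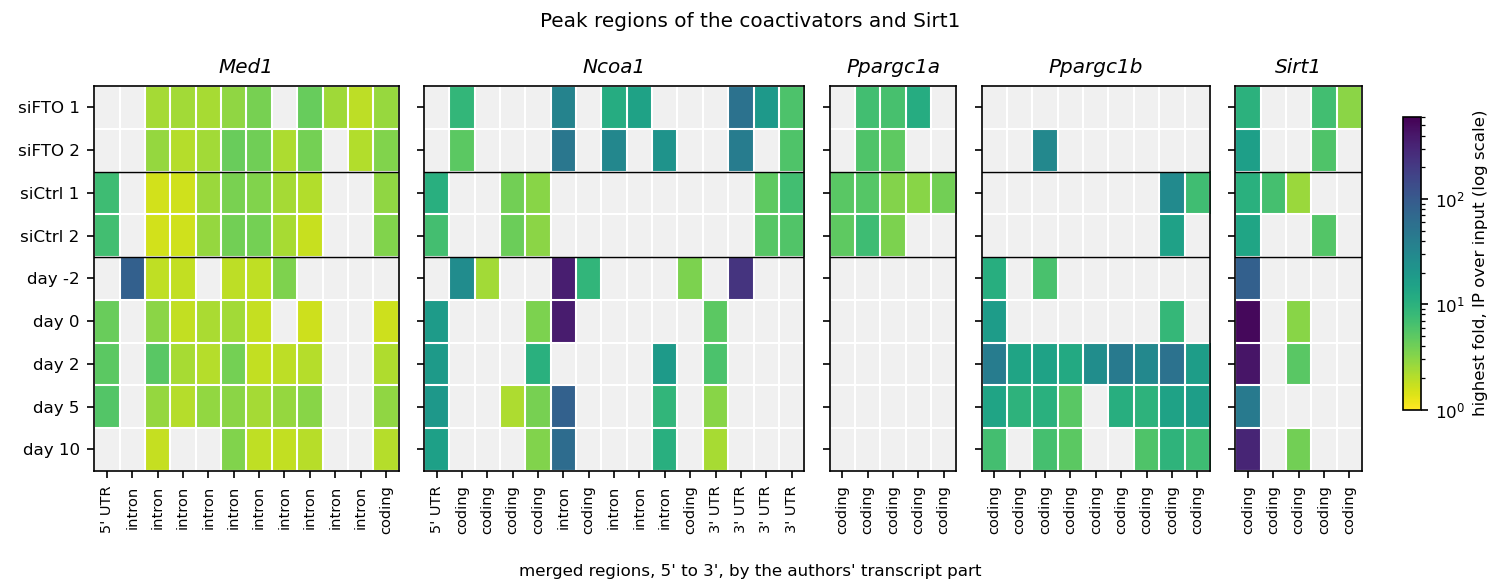
Regions of Med1, Ncoa1, Ppargc1a, Ppargc1b and Sirt1 from 5′ to 3′ (columns, labelled by the authors' transcript part) in each list (rows), coloured by the highest fold on a log scale, grey where the list has no peak. Of the Ncoa1 columns, 4 are filled in both siFTO lists and no siCtrl list and 3 in the reverse, Ppargc1b fills on day 2, and the first Sirt1 column is filled in all 9 lists.

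The siFTO and siCtrl lists were then compared for every gene by peak number and covered bases, with a two-sided exact permutation test over the 6 assignments of 4 lists, which cannot go below p = 0.333. A gene was called when the groups did not overlap. By peak number Pparg alone of the 8 genes was called higher in siFTO and none lower, where 21.6% of 11482 genes were called higher and 24.1% lower. Leaving out 1 list turned the lower count of 0 into 1 to 3, the highest without siFTO replicate 1. Pparg averaged 4 ± 0 peaks in siFTO cells, against 2.5 ± 0.707 in siCtrl cells (SD, n = 2 each; exact permutation p = 0.333). Benjamini-Hochberg adjustment over all genes gave 0.730 for it. By covered bases Pparg and Ncoa1 were higher and Ppargc1a and Ppargc1b lower in both siFTO lists. Of all genes 25.8% were higher and 33.4% lower, so 2 of 8 each way is near the background. Scaled to the list total, Pparg and Ncoa1 kept their calls, Ppargc1a and Ppargc1b did not, and Rxra was called lower.

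Covered bases of Pparg averaged 487.5 ± 17.7 in siFTO and 275 ± 106 in siCtrl (SD, n = 2 each; exact permutation p = 0.333, adjusted 0.563). Those of Ncoa1 averaged 900 ± 177 in siFTO and 650 ± 106 in siCtrl, with the same p. Ppargc1a averaged 325 ± 141 in siFTO against 450 ± 0 in siCtrl, and Ppargc1b 62.5 ± 88.4 against 187.5 ± 53.0, also at the smallest p. The Pparg difference of 212.5 bases was 137.5 without siCtrl replicate 2, that of Ncoa1 (250) was 125 without siFTO replicate 1, that of Ppargc1a (-125) became -225 when siFTO replicate 1 was dropped and -25 when siFTO replicate 2 was, and that of Ppargc1b (-125) was -62.5 without siFTO replicate 1. The other 4 genes overlapped between the groups in both measures (exact permutation p of 0.667 for Rxra and 1 for Nr1h3, Med1 and Sirt1). Over the 8 genes the median difference was -0.75 peaks and -68.75 bases, where it was 0 and 0 over all genes tested. The calls for Pparg and Ncoa1 rest on intronic peaks. Without these, Pparg had a difference of 0 in peak number, and covered bases of Ncoa1 differed by -200 instead of 250.

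Of the 76 regions of the 8 genes, 21 were in stage lists only. Among the rest, 7 were gained (present in each siFTO list, absent from siCtrl) and 10 were lost (the reverse). Over all genes, 12.3% of 47900 regions with a peak in a siRNA list were gained and 14.6% lost, so both counts are near the background. Regions of the 8 genes shared by at least 1 list of each group numbered 22, and 16 were in all 4 lists. Over all genes, 14804 of the 47900 regions were in all 4 lists. The gained ones were 4 of Ncoa1 and 1 each of Rxra, Nr1h3 and Med1. Of the lost ones, 3 were of Ncoa1, 2 of Rxra, 2 of Nr1h3 and 1 each of Med1, Ppargc1a and Ppargc1b. Pparg and Sirt1 had neither.

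The transcript part of the peaks moved with the siRNA groups. Of the 8 genes' peaks, 15 of 36 and 14 of 31 were intronic in siFTO, against 8 of 35 and 8 of 36 in siCtrl. Without Med1 the counts were 7 of 27 and 6 of 22 in siFTO, against 1 of 26 and 1 of 27 in siCtrl. In the 5′ UTR, 1 and 1 peaks were listed in siFTO, both on Nr1h3, and 3 and 3 in siCtrl. The siCtrl 1 peaks were 1 each on Pparg, Med1 and Ncoa1, and the siCtrl 2 peaks 1 on Med1 and 2 on Ncoa1. Whole lists differed in the same direction, with 19.5% and 17.1% of all peaks intronic in siFTO against 11.1% and 11.7% in siCtrl, and 4.33% and 5.01% in the 5′ UTR against 11.9% and 11.2%. Of 9 preadipocyte markers tested, 6 had fewer peaks in siFTO and 1 had more, against 24.1% and 21.6% of all genes. Col1a1, with the largest difference among those called, had 13 and 12 in siFTO against 35 and 34 in siCtrl. The part of these list-wide differences in the genes' own values was not tested. Across all 9 lists, 29.7% of the 8 genes' peaks were intronic, or 15.7% without Med1, against 14.8% of all peaks.

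**Figure D5:**
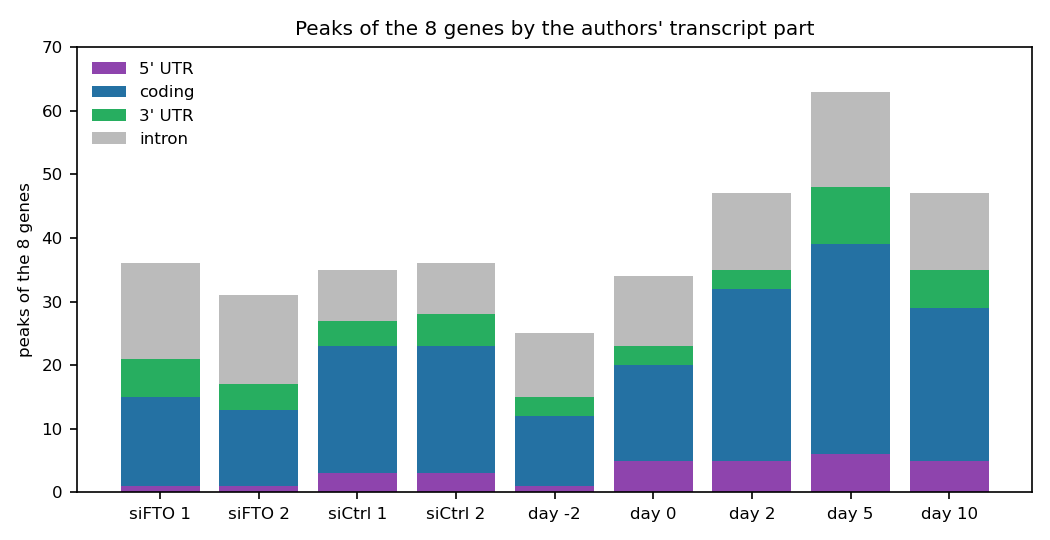
Peaks of the 8 genes in each list (stacked bars from 0), split by the authors' transcript part. Intronic peaks number 15 and 14 in siFTO and 8 and 8 in siCtrl, and the day 5 bar is the tallest with 63 peaks.

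Genes that act with this group were taken from lists written with earlier results of these data known. Of 24 PPARG target genes of adipocytes, 19 had a peak in some list. On day 10 against day 0, 12 of 17 were called higher in covered bases and 2 lower, against 21.1% and 5.92% of all genes. Of the 11 with a peak in the siRNA lists, 2 had more peaks in siFTO and 4 fewer, against 21.6% and 24.1% of all genes. Plin4, a lipid droplet coat gene, had 14 and 14 peaks in siFTO and 21 and 20 in siCtrl. Cebpa, the transcription factor that maintains Pparg, had 1 and 2 peaks in siFTO and 7 and 8 in siCtrl. Lipe, hormone-sensitive lipase, had 3 and 1 in siFTO and 5 and 6 in siCtrl, and 1, 2, 10, 20 and 13 on days -2 to 10.

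Of 15 other nuclear receptors, 12 had a peak in the siRNA lists, 1 with more peaks in siFTO and 7 with fewer, against 21.6% and 24.1% of all genes. The retinoic acid receptors Rara and Rarg had 8 and 8, and 2 and 1, peaks in siFTO, against 15 and 16, and 5 and 5, in siCtrl. Rxrb, the beta form of the Rxra product, had 4 and 4 in siFTO and 8 and 8 in siCtrl. Its number on days -2, 0, 2, 5 and 10 was 6, 10, 12, 13 and 12.

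Among 20 other coregulators 17 were tested, 4 with more peaks and 5 with fewer in siFTO, near the shares of all genes (21.6% and 24.1%). Ep300, a histone acetyltransferase, had 12 and 8 in siFTO and 14 and 14 in siCtrl. Nrip1 (RIP140), a corepressor of energy genes in fat, differed in the other direction, with 13 and 10 in siFTO and 8 and 8 in siCtrl. Of 14 genes listed as modifiers of PPARG, among them kinases, ligases, chaperones and acetylases, 13 were tested and 3 went each way, also near those shares. Kat2b had 2 and 2 in siFTO against 5 and 7 in siCtrl, Cul4b 6 and 3 against 1 and 1, and Nedd4 9 and 7 against 5 and 5. Each named gene has exact permutation p = 0.333 and an adjusted value of 0.730.

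The genes whose covered bases ran most like those of Pparg over the 9 lists, of 9145 with a peak in at least 5 lists, were Haus5 (Pearson's r 0.95), Mta3 (0.92), Hp (0.92), Ikbke (0.91) and Pym1 (0.90). The 9 points share library and list length, so r is a description only. Haus5 had 350 and 325 bases in siFTO, 0 and 0 in siCtrl, and 0, 0, 75, 525 and 300 on days -2 to 10. Among the 8 genes, r to Pparg was 0.69 for Nr1h3, 0.68 for Rxra, 0.51 for Ppargc1b, 0.49 for Ncoa1, 0.08 for Med1 and -0.02 for Sirt1, and Ppargc1a had peaks in too few lists.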

How the data were processed

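m6A was measured by antibody enrichment and single-end sequencing of poly(A)-selected, ribosome-depleted, fragmented RNA, per the labels' protocols. Alignment was with TopHat2 2.0.9 to mm10, and bedtools was used, per the submitters' processing notes. Not given in the sources used here: the peak caller, thresholds and depth scaling. Each deposited list comes from 1 IP and its input, and its enrichment value is read as a fold (ratio) of IP over input computed by the authors, per the file headers. Transcript parts are the authors'. Lines without a fold or an Ensembl gene, 50 in all (mitochondrial), were set apart. Of 12634 gene IDs, 12492 had a symbol in the table used.

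The 8 genes and the gene lists were chosen with earlier results of these data known. Named genes outside the 8 are at most 3 per list whose peak number does not overlap between siFTO and siCtrl, with the largest mean differences, and the 5 genes most like Pparg. A gene that this rule names is not reported here. Starts are printed counting from 1. Adjoining peaks stayed apart in regions. Tests ran across all 11482 genes with a peak in a siRNA list, in Python 3.11.15 with pandas 2.3.3 and numpy 2.4.6, after a check on simulated data. Reads of overlapping genes could not be told apart if the counting ignored strand. Alternatives used only peaks at or above the median fold, equal list lengths (26485 peaks), no intronic peaks, joined adjoining peaks, scaling to the list total, other folds and overlaps, and lists left out in turn.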

Additional observations from a re-analysis of the deposited data

How the results depend on the processing

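Read depth is unknown, so the precision of single peaks cannot be given, and with 2 lists against 2 no result could pass a threshold. Of 8 genes, those with more peaks in siFTO numbered 1 (Pparg), or 2 with low-fold peaks (under the list's median) dropped and 2 scaled to the list total, and 0 without intronic peaks or with adjoining peaks joined, with a range of 1 to 2 when 1 list was left out. Genes with fewer peaks numbered 0, or 2 with low-fold peaks dropped, 3 without intronic peaks, 3 scaled to the list total and 1 in the replicate block (differences within replicate number), with 1 to 3 when 1 list was left out. Without siFTO replicate 1 these were Rxra, Ppargc1a and Sirt1, without siFTO replicate 2 Ppargc1b, without siCtrl replicate 1 Rxra and Nr1h3, and without siCtrl replicate 2 Ppargc1a and Ppargc1b. Genes with more covered bases numbered 2, or 0 without intronic peaks, and 2 to 3 with 1 list left out. Genes with fewer numbered 2 (Ppargc1a and Ppargc1b), or 5 without intronic peaks and 1 scaled to the list total, which was Rxra. With 1 list left out they numbered 2 to 5, the highest without siCtrl replicate 1. Shares over all genes are given for the main settings only, so counts under the alternatives are not read as results about these genes. The pairing rests on a number that the labels give to the second replicates only, and the block changed no other count. The Pparg difference of 1.5 peaks was 0 without intronic peaks and 1 to 2 with 1 list left out, and its 212.5 bases were 75 without intronic peaks and ranged from 137.5 to 287.5 with 1 list left out.

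Differences that turned were Ncoa1 without intronic peaks (-2 peaks and -200 bases, from 1.5 and 250), Nr1h3 without siCtrl replicate 2 (0.5 peaks and 37.5 bases, from -1 and -162.5; -2.5 and -362.5 without siCtrl replicate 1) and Med1 bases with equal list lengths (100) and scaled (184), from -12.5. For day 10 against day 0, higher calls were 4 at 1.5-fold instead of 2, and 1 gene (Med1) was lower with equal list lengths and without intronic peaks. For day 0 against day -2, calls were 1 instead of 3 with equal list lengths, scaled and at 3-fold. For day 5 against day 0, chosen after seeing the data, they were 2 instead of 4 at 3-fold. The causes were not tested. Regions gained, lost and shared stayed within 1.5 times at an overlap of 50% of the shorter peak.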
